A study of Mus musculus with 2 samples.

Results

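Stem-like CD4 T cells, selected on transcripts of Tcf7 and Slamf6, were described in mouse graft-versus-host disease, among donor T cells sorted from the colon. A cell belonged to this population (here called Tcf7/Slamf6 cells) if it had at least 1 UMI (unique molecular identifier, 1 counted transcript) of Cd4, none of Cd8a or Cd8b1, at least 1 of both Tcf7 and Slamf6, and none of Il10. There were 133 such cells among 1861 cells with a Cd4 UMI and no Cd8 UMI (the CD4 class) and 5333 kept cells in all. They made up 7.15% of the CD4 class (95% exact Clopper-Pearson interval 6.02 to 8.41). Of the rest of the CD4 class, 321 cells had Tcf7 without Slamf6, 216 had Slamf6 without Tcf7, 79 had an Il10 UMI, and 1112 had none of the 3 genes. The last are called cells with neither gene and were the main comparison.

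The cells came from Balb/c recipients that had been lethally irradiated and given 5000000 bone marrow cells and spleen cells holding 800000 alpha beta T cells, both from C57BL/6 (B6) donors. All mice were transplanted, and no untreated or syngeneic group was analysed here. On day 21 the colons of 5 mice were dissociated and pooled, and donor T cells were sorted as H2-Kb+ and TCR beta+ (H2-Kb is the donor's class I molecule). The pool gave 1 droplet library for RNA (10x, 5' chemistry) and 1 for T cell receptors (TCR) from the same cDNA, so that it is 1 sample. No comparison has a replicate check and no p-value was computed. Intervals cover counting error at 95% and nothing else, take UMIs as independent, and are too narrow where a few cells hold most UMIs of a gene. The sample titles name CD4 T cells, but 2391 kept cells had Cd8 UMIs and no Cd4 UMI.

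Tcf7 encodes TCF-1, a DNA-binding factor of the TCF/LEF family that T cells need for their development and that memory and self-renewing T cells keep. It falls in most terminal effector cells. Slamf6 encodes Ly108, a receptor of the SLAM family that signals through the adaptor SAP (Sh2d1a). In chronic infection and in tumours, T cells with both are known as stem-like or progenitor cells, which divide and give rise to effector cells. S1pr1, the receptor for sphingosine-1-phosphate that lets T cells leave tissue, and Cxcr5, the receptor that brings T cells into B cell follicles, are further markers that the selection did not use.

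The selection rested on few molecules per cell. Tcf7 (mm10 chromosome 11, 52252371 to 52283014, minus strand) gave 221 UMIs in the 133 cells, with 1 UMI in 79 cells, 2 in 35, and at most 5. Slamf6 (chromosome 1, 171917515 to 171953170, plus strand) gave 209 UMIs, with 1 in 88 cells, 2 in 29, and at most 8. There were 58 cells at the threshold, with 1 UMI of each gene. Just outside it stood 234 cells with 1 Tcf7 UMI and no Slamf6 UMI, and 163 cells with the reverse. Tcf7/Slamf6 cells had a median of 5259 UMIs and 1919 genes, against 4657.5 UMIs and 1773 genes in cells with neither gene. When each cell was thinned to 2000 UMIs, 29 of the 133 still showed both genes, and 43 showed neither. A cell with neither gene is thus one in which they were not detected at this depth. At least 2 productive TCR beta chains, which a barcode holding more than 1 cell can show, were found in 7 of 133 Tcf7/Slamf6 cells (5.26%, interval 2.14 to 10.5) and in 17 of 1112 cells with neither gene (1.53%, 0.893 to 2.44).

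**Figure D1:**
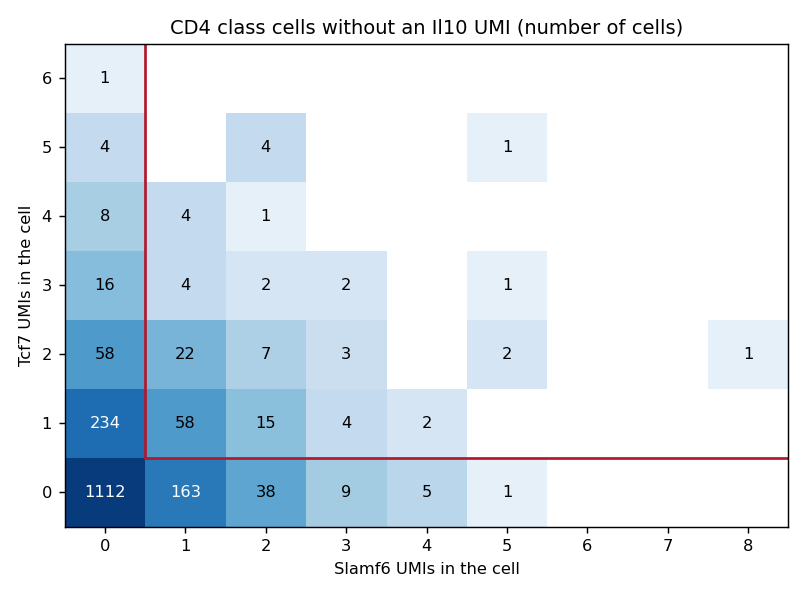
Number of CD4 class cells without an Il10 UMI at each count of Slamf6 UMIs (x axis) and Tcf7 UMIs (y axis) in the cell; colour follows the log10 of the number. The red lines enclose the 133 Tcf7/Slamf6 cells, 58 of which have 1 UMI of each, and the lower left square holds the 1112 cells with neither gene.

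Several genes of lymph node homing and tissue exit were higher in Tcf7/Slamf6 cells than in cells with neither gene. Several chemokine genes and those of granzyme A and GM-CSF were lower, although the chemokine gene Cxcl10 was higher. S1pr1, Ccr7 (the receptor that guides T cells to lymph nodes), Klf2 (the factor that drives S1pr1 transcription) and its relative Klf3 were between 2.31-fold and 4.05-fold higher. Ccl1, Ccl3, Ccl4, Xcl1, Gzma and Csf2, which encodes GM-CSF, were at 0.0176 to 0.180 of the other cells' level. Levels are UMIs of a gene summed over the cells of a group, per 10000 UMIs of that group. Of 7787 genes with at least 50 UMIs over both groups, 102 (1.31%) were at a ratio of 2 or more and 270 (3.47%) at 0.5 or less. The groups were cut from the same counts, so these folds describe the selected cells and are not a test.

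S1pr1 (chromosome 3, 115710433 to 115715072) had 96 UMIs in 45 Tcf7/Slamf6 cells, a level of 1.08 (interval 0.876 to 1.32), and 209 UMIs in 139 cells with neither gene, a level of 0.317. The ratio was 3.41 (2.65 to 4.36). Ccr7 had 77 UMIs in 26 Tcf7/Slamf6 cells, a level of 0.868 (0.685 to 1.08), against 0.214, a ratio of 4.05 (3.03 to 5.39). Klf2 had the highest level of the 3, at 3.45 (3.07 to 3.86) against 1.496, a ratio of 2.31 (2.02 to 2.62). Klf3 was at 0.428 against 0.150 (ratio 2.85, 1.91 to 4.18), although its log2 ratio was -0.11 with 2 or more UMIs required of both Tcf7 and Slamf6. The level intervals of the 2 groups did not overlap for any of these 4 genes. Cxcr5, the other given marker, rests on few molecules. It had 6 UMIs in 4 Tcf7/Slamf6 cells, with 50% of them in 1 cell, and 9 UMIs in 5 cells with neither gene. Its ratio was 4.95, with an interval of 1.45 to 15.6.

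Cells with only 1 of the 2 selecting genes stood between for some of these genes and not for others. The S1pr1 level was 0.644 in cells with Tcf7 only and 0.580 in cells with Slamf6 only, both between the Tcf7/Slamf6 cells and the cells with neither gene, with intervals that overlapped each other. Klf2 also stood between, at 2.45 with Tcf7 only and 2.57 with Slamf6 only. Ccr7 differed: it was at 0.509 in cells with Slamf6 only, with 47.2% of those UMIs in 1 cell, and at 0.191 in cells with Tcf7 only, where the ratio to cells with neither gene was 0.892 (0.598 to 1.30). Il10-positive CD4 cells had S1pr1 at 0.973 and Klf2 at 3.25, whose intervals overlapped those of the Tcf7/Slamf6 cells. Ifng, which encodes interferon gamma, ran the other way, from 0.766 in Tcf7/Slamf6 cells through 1.53 with Tcf7 only and 1.89 with Slamf6 only to 2.32 with neither gene. Csf2 was at 0.372 in Tcf7/Slamf6 cells and 0.371 in cells with Tcf7 only, but at 1.33 with Slamf6 only and 2.06 with neither gene. Pdcd1, the gene of the inhibitory receptor PD-1, was likewise low in both groups with Tcf7 (1.25 and 1.12) and higher with Slamf6 only (2.81) or neither gene (2.45).

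**Figure D2:**
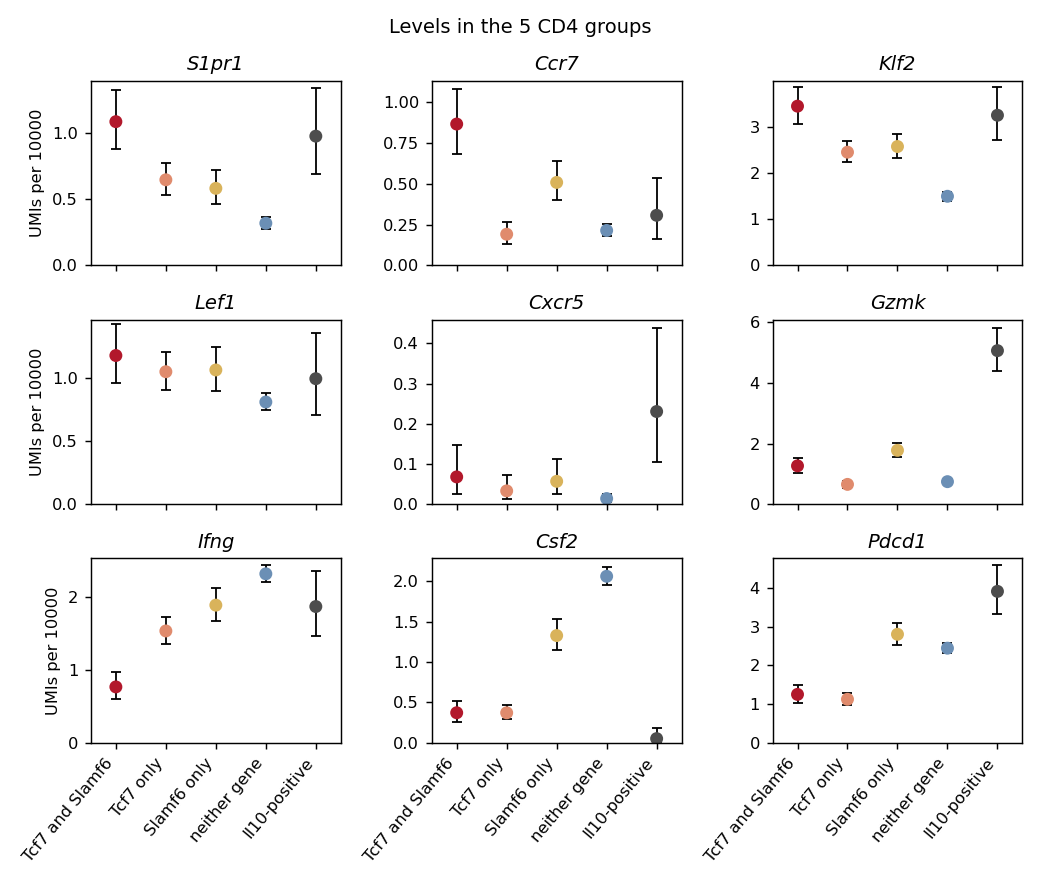
Level of 9 genes (y axis, summed UMIs per 10000) in the 5 groups of the CD4 class (x axis), with 95% Poisson intervals that cover counting error only. S1pr1, Ccr7 and Klf2 are highest or level with the highest in Tcf7/Slamf6 cells (1.08, 0.868 and 3.45), while Ifng is lowest there (0.766) and Cxcr5 has few UMIs in any group.

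Shares of cells with a UMI after thinning every cell to 2000 UMIs were taken beside the unthinned ones. S1pr1 was detected in 16.5% of Tcf7/Slamf6 cells (10.7 to 24.0), 5.76% of cells with neither gene (4.46 to 7.29) and 19.0% of Il10-positive cells. The 65 barcodes with at least 3 of 8 macrophage markers, from the same sort, gave 1.54% (0.0389 to 8.28). Unthinned, the shares were 33.8% and 12.5% for the first 2 groups, at median depths of 5259 and 4657.5 UMIs, and 6.15% for the macrophage-marker barcodes, at 7690. Ccr7 was detected in 12.8% of thinned Tcf7/Slamf6 cells (7.63 to 19.7), 1.71% of cells with neither gene (1.03 to 2.66) and 3.08% of macrophage-marker barcodes. Cxcr5 was detected in 3 thinned Tcf7/Slamf6 cells (2.26%, 0.468 to 6.45) and in 0.360% of cells with neither gene (0.0981 to 0.918). These Cxcr5 intervals overlap.

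The 12 genes with the highest ratios, ranked by the lower interval bound, were led by Nav2, which encodes a large cytoskeleton-associated protein. Nav2 had 25 UMIs in 20 Tcf7/Slamf6 cells, a level of 0.282, and 30 UMIs in 26 cells with neither gene, a level of 0.0456. Its ratio was 6.18 (3.49 to 10.9). Cxcl10, the interferon-induced ligand of CXCR3, was at 1.87 against 0.482 (ratio 3.89, 3.2 to 4.70) and came from 33 of the 133 cells. These 33 cells were deeper, with a median of 8054 UMIs against 4834 in the other 100. With 1 cell per clonotype, which left 25 Tcf7/Slamf6 cells, the Cxcl10 log2 ratio was 0.89 (-0.27 to 1.91) against 1.96, so that the interval held 0. Asap1, an Arf GTPase-activating protein, was at 1.44 against 0.457 and was detected in 62 of the 133 cells. Its ratio was 3.16 (2.55 to 3.89). Spock2, a secreted proteoglycan, was 4.01-fold higher (2.55 to 6.23), Klk1b27, a kallikrein protease, 3.64-fold (2.18 to 5.92), and Cd83, an activation marker, 3.21-fold (2.40 to 4.27). Cd83 had a log2 ratio of 1.68, and of 0.80 (-0.15 to 1.66) when each clonotype gave 1 cell. Ly6c2, a surface protein of memory T cells, was at 0.631 against 0.184 (ratio 3.43, 2.46 to 4.75), with 23.2% of its UMIs in 1 cell. Il17a was at 0.699 against 0.235, a ratio of 2.97 (2.17 to 4.01), but its 62 UMIs lay in 6 cells, and with 2 or more UMIs required of both selecting genes its log2 ratio was -1.34.

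The 12 genes with the lowest ratios were mostly chemokines and effector products. Ccl1, a ligand of CCR8, had 5 UMIs in Tcf7/Slamf6 cells and 2105 in cells with neither gene, a ratio of 0.0176 (0.00572 to 0.0412). Ccl4 and Ccl3, inflammatory chemokine genes, had 6 UMIs each in 2 cells and ratios of 0.0237 (0.00870 to 0.0517) and 0.0426 (0.0156 to 0.0930). When groups were set on thinned cells, which gave 24 cells with both genes, the Ccl4 log2 ratio was 1.18. Lineage and Il10 status were then also set on thinned counts. Of the Il10-positive CD4 class cells, 3 showed both genes and no Il10 UMI after thinning. Their part in the Ccl4 value was not tested. Without the condition on Il10, with 137 Tcf7/Slamf6 cells, the Ccl4 log2 ratio was -1.74 against -5.40. Xcl1 was at 0.113 against 1.08 (ratio 0.105), and Csf2 at 0.372 against 2.06 (ratio 0.180, 0.124 to 0.254), with 10 positive Tcf7/Slamf6 cells and 39.4% of the UMIs in 1 of them. Without cells that had 2 or more TCR beta chains the log2 ratio of Csf2 was -3.62, against -2.47 with them. Gzma, which encodes granzyme A, was at 0.868 against 6.54 (ratio 0.133), with 50 of its 77 UMIs in 1 Tcf7/Slamf6 cell. Over the alternatives its log2 ratio ran from -6.55 to -2.73, that of Csf2 from -4.57 to -1.22 and that of Ccl1 from -7.27 to -3.45. Ifitm1, an interferon-induced membrane protein, was at 0.823 against 6.70 (ratio 0.123), with log2 ratios from -6.15 to -2.16 over the alternatives. Havcr2, the gene of the inhibitory receptor TIM-3, had 2 UMIs (ratio 0.0642, 0.00773 to 0.235), as did Gstm5 (0.0510) and Calca (0.0554), and Ccdc184 had 8 (0.126). Cxcl2 had 0 UMIs against 304, which lay in 12 of the 1112 cells with neither gene. The floor of 3 UMIs over the group puts it 13.7-fold lower. That floor takes UMIs as independent, so it is not a safe bound with so few positive cells.

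**Figure D3:**
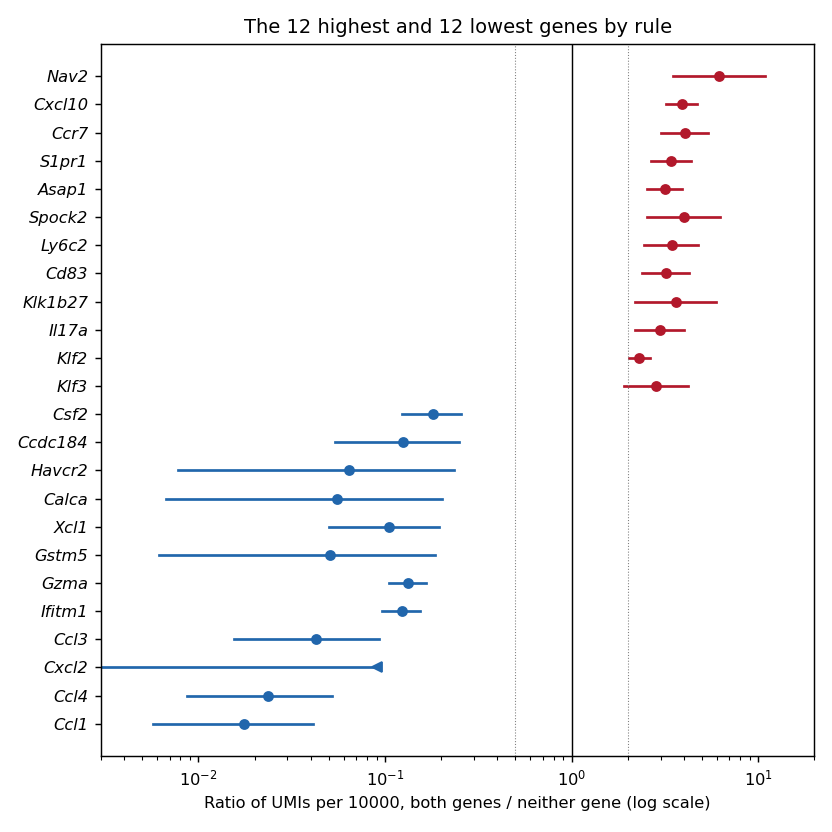
Ratio of levels in Tcf7/Slamf6 cells over cells with neither gene (x axis, log scale) for the 12 highest and 12 lowest genes, with 95% intervals that cover counting error only. The triangle marks the upper bound for Cxcl2, with 0 UMIs; dotted lines stand at ratios of 0.5 and 2. Nav2 has the highest ratio (6.18) and Ccl1 the lowest of those with UMIs (0.0176).

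Markers of other cell types, beta chains and depth were set beside these results. The 14 macrophage markers together were at a level of 0.721 in Tcf7/Slamf6 cells, with 3 of 14 at 0, and at 3.02 in cells with neither gene, with none at 0. B cell markers were at 0.270 against 0.117, with 10 of 12 at 0 in Tcf7/Slamf6 cells, among them Ms4a1 and Cd79a. Gamma delta and NKT markers were at 0.0789 against 0.421, and all 8 neutrophil markers were at 0 in Tcf7/Slamf6 cells. The part of B cell, gamma delta and NKT transcripts in the results was not tested. Without barcodes that held 2 or more of the 14 macrophage markers, an alternative chosen after seeing the data, log2 ratios were 1.79 for S1pr1, 2.42 for Ccr7 and -2.36 for Csf2, against 1.77, 2.02 and -2.47 with them. Without cells with 2 or more TCR beta chains, S1pr1 stood at 1.81 and Ccr7 at 1.85. Among cells of 3000 to 8000 UMIs, 81 Tcf7/Slamf6 cells with a median of 4744 UMIs and 825 cells with neither gene with a median of 4499, S1pr1 stood at 2.19, Ccr7 at 1.59, Klf2 at 1.68 and Csf2 at -3.45.

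Lists of genes by function showed where the cells differed as groups of genes. Of 20 stem-like and memory genes other than Tcf7 and Slamf6, 19 were measured (at least 10 UMIs over both groups) and 17 had a ratio above 1. S1pr1, Ccr7, Klf2, Klf3 and Cxcr5 (5 genes) were at 2 or more, none was at 0.5 or less, and the median log2 ratio was 0.54. The median of the genes' lower interval bounds was -0.16 and that of their upper bounds 1.39, a span that holds 0. Cells with Slamf6 only had a median of 0.51 for this list and cells with Tcf7 only one of 0.38, both against the same cells with neither gene. Over all 9832 genes measured, 379 (3.86%) were at 2 or more, 503 (5.12%) at 0.5 or less, and the median was 0.02. Among the list's other genes, Lef1, the other TCF/LEF factor of T cells, was at 1.18 against 0.813 (ratio 1.46, 1.17 to 1.80), and with groups set on thinned cells its log2 ratio was -0.07. Il7r, the IL-7 receptor of naive and memory cells, was at 4.86 against 4.21 (ratio 1.15, 1.04 to 1.28), and its log2 ratio was -0.59 with 2 or more UMIs required of both genes. Cd27 was at a ratio of 1.48 (1.13 to 1.92). Myb at 1.47 (0.874 to 2.36), Id3 at 1.09 (0.333 to 2.80) and Bach2 at 1.86 (0.192 to 9.29) had intervals that held 1. The 9 genes of lymph node homing and tissue exit, some of which are also in the first list, had a median of 0.66.

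Genes of the TCF/LEF pathway and of the SLAM family, to which the selecting genes belong, were mostly between 0.5 and 2. Of 16 TCF/LEF and beta-catenin genes measured, 1 was at 2 or more and none at 0.5 or less (median 0.22). Of 8 SLAM family genes and adaptors, none was at 2 or more and 1, Slamf7, at 0.5 or less. Their median was 0.27 with Cd244, at 0 UMIs, set to the floor of 3 UMIs, and 0.04 with it set lowest. Sh2d1a, the gene of the adaptor SAP, was at 1.92 against 1.02 (ratio 1.87, 1.57 to 2.22). Slamf7 was at 0.113 against 0.284 (ratio 0.397, 0.187 to 0.746), and its log2 ratio was 0.09 with groups set on thinned cells.

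Follicular helper genes had a raised median but went both ways. Of 15 measured, 3 were at 2 or more and 2 at 0.5 or less (median log2 0.73). Bcl6, the lineage factor of follicular helper cells, was at 0.304 against 0.128 (ratio 2.38, 1.49 to 3.72), Il21, their cytokine, at 0.293 against 0.140 (2.10, 1.30 to 3.27), and Tox2 at 0.721 against 0.365 (1.98, 1.48 to 2.62). Cxcr4 was at a ratio of 1.66 (1.31 to 2.08) and Cd200 at 1.73 (1.07 to 2.70). Pdcd1, also a follicular helper gene, was at 0.511 (0.418 to 0.620), and Il4 at 0.188 with 4 UMIs.

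**Figure D4:**
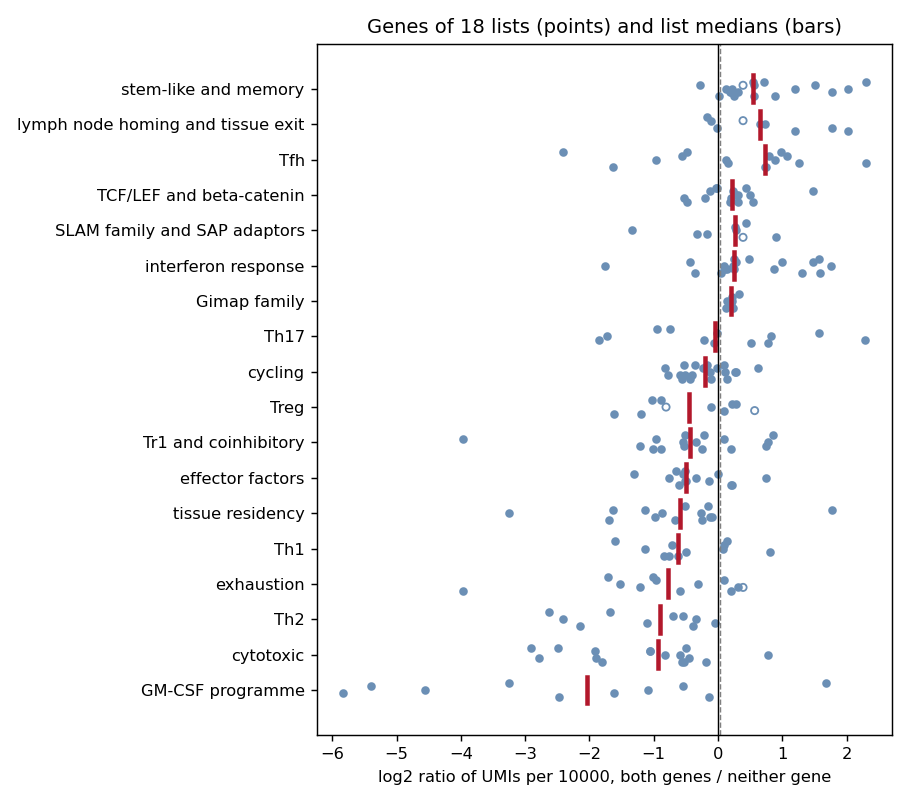
Log2 ratio of Tcf7/Slamf6 cells over cells with neither gene (x axis) for the measured genes of 18 lists (y axis): points are genes, open points genes with 0 UMIs in Tcf7/Slamf6 cells set to the floor of 3 UMIs, red bars list medians, the dashed line the median of all 9832 genes (0.02). The medians run from 0.73 for follicular helper genes to -2.04 for the GM-CSF programme.

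Effector lists had lower medians. Of 16 cytotoxic genes measured, 8 were at 0.5 or less and none at 2 or more, with a median log2 ratio of -0.94. Klrd1 (ratio 0.178) and Klrc1 (0.266), which encode the NK receptor CD94 and its partner NKG2A, were lower, while Gzmk, the gene of granzyme K, stood at 1.26 against 0.740 (ratio 1.71, 1.38 to 2.10). The log2 ratio of Gzmk was 0.77, but 1.48 without cycling cells and 3.02 with 1 cell per clonotype. The 10 genes of the GM-CSF programme had a median of -2.04, with 7 at 0.5 or less and 1, Cd83, at 2 or more. Th2 genes were at a median of -0.90, with 5 of 10 at 0.5 or less and none above 1. Il13 had 4 UMIs against 183 (ratio 0.162) and Gata3, the Th2 factor, was at 0.684 (0.521 to 0.885), although its log2 ratio was 0.04 on thinned groups and 0.02 with 2 or more UMIs of both genes. Th1 genes had a median of -0.63. Ifng was at a ratio of 0.331 (0.255 to 0.422), Tbx21, the Th1 factor T-bet, at 0.587 (0.420 to 0.802), and the tissue chemokine receptor Cxcr6 at 0.457 (0.390 to 0.532). Cxcr3, the inflammatory chemokine receptor of Th1 cells, was at 1.74 (1.45 to 2.09), but its log2 ratio was -0.06 with groups set on thinned cells. Th17 genes were at a median of -0.04, with Ccr6 at 0.192 against 0.0395 (ratio 4.85, 2.47 to 9.29) and Il22 at 0.278 (0.101 to 0.619).

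The 12 exhaustion genes measured had a median of -0.78, with 5 at 0.5 or less and 3 above 1. Lag3, an inhibitory receptor, was at 0.462 against 1.08 (ratio 0.430, 0.306 to 0.589). Il2ra, the high-affinity IL-2 receptor chain, was at 0.552 against 1.69 (ratio 0.328, 0.241 to 0.436), and Tnfrsf9, the costimulatory receptor 4-1BB, at a ratio of 0.488. Id2, the partner factor of effector differentiation, was at 3.97 against 6.25 (ratio 0.635, 0.568 to 0.708). The regulatory factor Foxp3 had 0 UMIs in Tcf7/Slamf6 cells and 39 in 13 cells with neither gene. The 14 genes of the tissue residency list had a median of -0.60. The 1 gene above a ratio of 1 was Ly6c2, which is not itself a marker of residency. The 20 cycling genes had a median of -0.20, none at 2 or more and none at 0.5 or less. Interferon response genes had a median of 0.25, with 16 of 19 above 1, 5 at 2 or more and 1, Ifit3, at 0.5 or less. Of the 5, Ifit1 had 19 UMIs in 4 Tcf7/Slamf6 cells, with 73.7% of them in 1 cell. Rtp4 was at a ratio of 3.01 (1.87 to 4.73), with 25% of its UMIs in 1 cell. Ifi27l2a, detected in 101 of the 133 cells, was at 8.84 against 4.45 (ratio 1.99, 1.84 to 2.15). All 8 Gimap genes, which encode GTPases of lymphocyte survival, were above 1, with a median of 0.20, and Gimap6 at a log2 ratio of 0.32.

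Tcf7/Slamf6 cells were next compared with the 68 CD4 class cells that had Il10 and no Foxp3, of which 25 had a Slamf6 UMI. S1pr1 was at 1.08 in Tcf7/Slamf6 cells and 0.930 in Il10-positive cells (ratio 1.16, 0.769 to 1.81), and Klf2 at 3.45 against 3.33 (1.04, 0.831 to 1.30). Lef1 stood at 1.07 (0.727 to 1.60) and Itga4, the integrin alpha 4 chain, at 1.11 (0.865 to 1.45). For these 4 genes the counts did not show a difference, and the intervals allow one of up to 1.81-fold. The 13 stem-like and memory genes measured had a median log2 ratio of 0.05. Ccr7 was at 0.868 against 0.0900, on 3 UMIs in Il10-positive cells (ratio 9.65, 3.18 to 47.8), and Il7r at 4.86 against 2.25 (ratio 2.16, 1.69 to 2.80). Cd27 went the other way, at 0.777 against 3.09 (ratio 0.252, 0.183 to 0.345). Of 3328 genes with at least 50 UMIs, 114 (3.43%) were at 2 or more and 90 (2.7%) at 0.5 or less. At the minimum of 10 UMIs used for lists, 661 of 7505 genes (8.81%) were at 2 or more and 469 (6.25%) at 0.5 or less.

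Several chemokine genes were far lower in Tcf7/Slamf6 cells. Ccl5 was at 16.6 in Tcf7/Slamf6 cells and 167.8 in Il10-positive cells (ratio 0.0989, 0.0933 to 0.105), Ccl4 at 0.0676 against 19.9 (0.00340), and Ccl3 at 0.0676 against 3.21 (0.0211). The inhibitory receptor gene Lag3 was at 0.462 against 2.82 (0.164, 0.111 to 0.239), and Gzma at 0.868 against 4.53 (0.192). Gzmk was also lower, at 1.26 against 5.85 (0.216, 0.170 to 0.274). Of 16 Tr1 and coinhibitory genes, 12 were at 0.5 or less (median -1.60), and the 15 cytotoxic genes had a median of -1.69. Of 8 Th17 genes, 6 were at 2 or more, with 5 at 0 UMIs in Il10-positive cells. Higher in Tcf7/Slamf6 cells were Cxcl10 (1.87 against 0.180, ratio 10.4) and Tmem176b (1.05 against 0.120, ratio 8.74). Tnfsf11, the gene of RANKL, was also higher (3.08 against 0.5997, ratio 5.13, 3.26 to 8.53). Il17a had 62 UMIs in 6 Tcf7/Slamf6 cells and 0 UMIs in Il10-positive cells. The floor of 3 UMIs over the group puts it 7.77-fold higher. That floor takes UMIs as independent, so it is not a safe bound with so few positive cells. Actn2, at a ratio of 24.1 on 1 UMI in the Il10-positive cells, was at 0.466 (0.3561 to 0.6001) against cells with neither gene. Of 20 cycling genes, 10 were at 2 or more (median 1.21), led by Ube2c at 1.88 against 0.300 (ratio 6.28, 3.33 to 13.3). Without cycling cells, 54 genes were at 2 or more and 54 at 0.5 or less.

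Marker genes were then compared cell by cell among the 133 cells. S1pr1 had a UMI in 5 of 26 Ccr7-positive cells (19.2%, 6.56 to 39.4) and in 40 of 107 Ccr7-negative ones (37.4%, 28.2 to 47.3), although the former were deeper (median 8018 against 5161 UMIs). The intervals overlap. Klf2 had a UMI in 64.4% of S1pr1-positive cells (48.8 to 78.1) and 44.3% of the others (33.7 to 55.3), and Lef1 in 60.0% and 40.9%, again with overlapping intervals, at median depths of 5210 and 5358.5 UMIs. Of 25 Gzmk-positive cells, 1 had Ccr7 (4.0%, 0.101 to 20.4), against 25 of 108 without Gzmk (23.1%, 15.6 to 32.3), and 9 had Ifng (36.0%) against 20 of 108 (18.5%). These intervals overlap too, and the pairs of genes were chosen after values were seen.

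Cells at the threshold differed from the others for some genes. The S1pr1 level was 0.988 in the 58 cells with 1 UMI of each selecting gene and 1.15 in the 75 with more (ratio 0.861, 0.553 to 1.32), and Klf2 was at 3.62 and 3.33. Ccr7 was lower at the threshold, at 0.604 against 1.05 (ratio 0.574, 0.333 to 0.957), as was Cd83 (0.439 against 1.05). Ccl5 was higher there, at 22.9 against 12.2 (1.88, 1.70 to 2.09). Cells with more UMIs of the selecting genes were deeper, with a median of 5510 UMIs against 4629.

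The same selection on Tcf7 and Slamf6 was made in cells the main rule left out. Among cells with no Cd4 or Cd8 UMI, 53 had both genes and no Il10, and 492 had none of the 3. S1pr1 was at 2.10 against 0.407 there (ratio 5.16, 3.57 to 7.36), Ccr7 at 1.44 against 0.199 (7.24, 4.502 to 11.51, with 42.4% of UMIs in 1 cell), Itga4 at 3.84 against 1.49 (2.59, 2.03 to 3.28), and Csf2 at 0 UMIs against 313. Klf2 was less apart, at 3.32 against 2.498 (1.33, 1.03 to 1.69). In the CD8 class, 77 cells had both genes and 1780 had none of the 3. S1pr1 was at 0.478 against 0.295 (ratio 1.62, 1.05 to 2.40), Klf2 at 2.85 against 2.21 (1.29, 1.09 to 1.51), Ccr7 at 0.655 against 0.0867 (7.56, 5.02 to 11.2), Il7r at 3.40 against 1.55 (2.19, 1.88 to 2.55) and Ifng at 0.531 against 2.46 (0.216, 0.146 to 0.309). The interval of S1pr1 in the CD8 class lay below that of the CD4 class, and the difference between classes was not tested. These cells come from the same pool and library.

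TCR chains, which the selection did not use, showed how the cells were related. Cells with 1 productive beta chain and at least 1 alpha chain were put in 1 clonotype if their CDR3 sequences, V segments and J segments were identical. Of the 133 Tcf7/Slamf6 cells, 67 had a clonotype, in 46 clonotypes. In 51 of the 67 (76.1%, 64.1 to 85.7) it was expanded, found in 2 or more CD4 class cells, against 70.6% of cells with neither gene (66.4 to 74.5), 80.1% with Tcf7 only, 73.9% with Slamf6 only and 80.4% with Il10. These intervals overlap. Of the 46 clonotypes, 27 also held a cell with neither gene, 19 one with Tcf7 only, 15 one with Slamf6 only, 10 an Il10-positive cell and 5 a CD8 class cell. Of the 67 cells, 44 thus had a clonotype mate with neither gene. Over pairs of cells of 1 clonotype, 11.7% of the mates of Tcf7/Slamf6 cells (86 of 734 pairs, 30 clonotypes) were such cells themselves, against 5.49% of the mates of cells with neither gene. Tcf7/Slamf6 cells made up 7.57% of all CD4 class cells with a clonotype. Over pairs, they were 6.98% of the mates of cells with Tcf7 only, 9.92% with Slamf6 only and 4.58% with Il10. Weighting clonotypes equally gave 8.96% for mates of Tcf7/Slamf6 cells and 7.03% for mates of cells with neither gene. It gave 9.61% with Tcf7 only, 10.2% with Slamf6 only and 9.38% with Il10, all above the 8.96%. With 2 or more UMIs required of both genes, which left 24 cells, the share among mates of Tcf7/Slamf6 cells was 0%. Pairs within a clone are not independent, so no interval is given.

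The 6 clones with most Tcf7/Slamf6 cells are shown by their beta chain CDR3, since they show that these cells hold many receptors. Capitals mark the codons between the first 4 and the last 4, where the junction lies.
clone 1: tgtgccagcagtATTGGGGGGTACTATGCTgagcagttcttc
clone 2: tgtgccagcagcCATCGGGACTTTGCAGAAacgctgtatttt
clone 3: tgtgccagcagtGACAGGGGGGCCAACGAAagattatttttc
clone 4: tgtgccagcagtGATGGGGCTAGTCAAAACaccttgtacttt
clone 5: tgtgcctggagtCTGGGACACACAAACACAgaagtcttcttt
clone 6: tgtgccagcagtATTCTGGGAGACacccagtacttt

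Clone 1 (TRBV19 with TRBJ2-1, paired with TRAV6-3) held 31 CD4 class cells, of which 7 were Tcf7/Slamf6 cells, 5 had Tcf7 only, 9 Slamf6 only, 8 neither gene and 2 Il10. It had Slamf6 in 17 cells and S1pr1 in 16. Clone 2 (TRBV3 with TRBJ2-3) had as many CD4 class cells, 31, with 4 Tcf7/Slamf6 cells, 10 with Tcf7 only and 14 with neither gene. Clone 5 (TRBV31 with TRBJ1-1) was the largest of the 6, with 33 cells, but had 2 Tcf7/Slamf6 cells, 12 with Tcf7 only and none with Slamf6 only. Clone 3 (TRBV13-1 with TRBJ1-4) had 4 Tcf7/Slamf6 cells among 7, all 7 with Slamf6 and none with neither gene. Clones 4 (TRBV13-1 with TRBJ2-4) and 6 (TRBV19 with TRBJ2-5) held 3 of 16 and 2 of 15. The beta CDR3s of clones 1 and 6, which both use TRBV19, share their first 15 bases and differ in length, at 42 and 36 bases. The lower-case bases at their start also open the CDR3s of clones 3 and 4, which use TRBV13-1. The shared start thus does not show that the receptors are related.

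**Figure D5:**
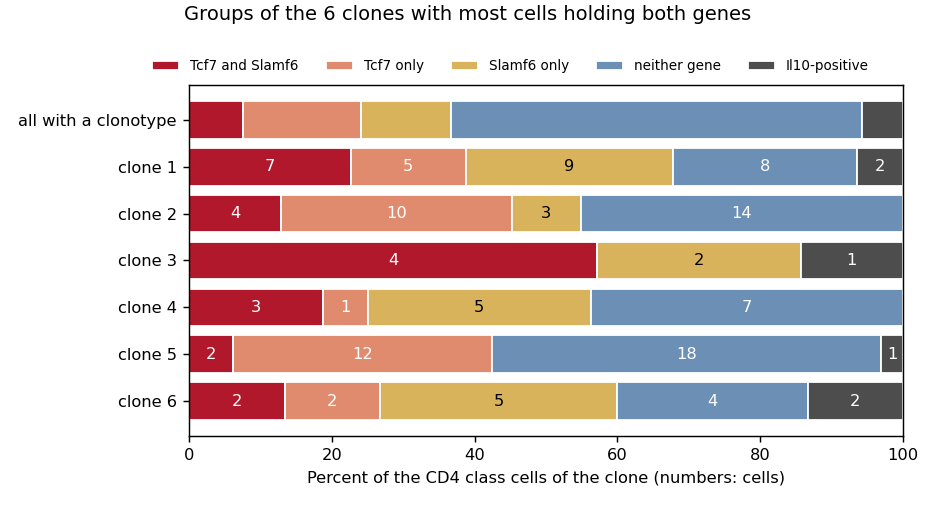
Groups of the CD4 class cells of 6 clones (y axis) as a percentage of the clone (x axis), with numbers of cells in the bars; the top bar gives all CD4 class cells with a clonotype. Tcf7/Slamf6 cells make up 7.57% of the top bar, 7 of 31 cells of clone 1 and 2 of 33 of clone 5.

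V segments were counted over beta chains. Of the 97 productive beta chains of Tcf7/Slamf6 cells, 20 used TRBV19 (20.6%, 13.1 to 30.0), in 10 distinct sequences. TRBV19 made up 16.1% of chains in cells with Slamf6 only (10.7 to 22.9), 11.7% with Tcf7 only (7.74 to 16.8), 10.2% with Il10 (3.82 to 20.8) and 7.39% with neither gene (48 of 650, 5.50 to 9.67). TRBV2 was used by 6 of 97 chains, in 3 distinct sequences (6.19%, 2.304 to 12.98), and by 4 of 650 with neither gene (0.615%, 0.168 to 1.57). Cells of 1 clone share a chain, so these chains are fewer independent events than their number. The beta CDR3 had a median of 14 codons in both groups.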

How the data were processed

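The deposited values are UMI counts per gene and cell barcode, not normalized. They were made by the authors with Cell Ranger on mm10, per the submitters' processing notes. Its version was not given in the sources used here. A contig table of the TCR library was also deposited, and 5133 of the kept cells were among its 5990 barcodes.

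Barcodes with at least 500 genes and at most 10% mitochondrial UMIs were kept (5333 of 5348, median 4800 UMIs, at least 2549). Lineage classes, groups and lists follow the definitions given with the results. The members and the gene lists were chosen with earlier results of these data known. Counts were summed over the cells of a group and divided by the group's total. Levels have exact Poisson intervals, ratios have exact conditional binomial ones, and shares have Clopper-Pearson ones (95% throughout). With 1 sample no test was made. For bounds and medians, 0 UMIs in a group were replaced by a floor of 3 UMIs. Ratios of 2 or more and of 0.5 or less were counted over genes with at least 50 UMIs in both groups together, and lists over genes with at least 10. Cells were thinned to 2000 UMIs without replacement for the shares. Genes were named by rule: the 12 highest and 12 lowest against cells with neither gene and the 6 highest and 6 lowest against Il10-positive cells, by the interval bound nearest 1, and up to 4 from each of 35 lists, with Tcf7, Slamf6, S1pr1 and Cxcr5 always given. T cell receptor, immunoglobulin, mitochondrial, ribosomal and predicted genes were left out of the rankings. Other genes named in the text were chosen after their values were seen. Some genes that the rule names are not reported here. Positions are from GENCODE on mm10, where 30934 of 31053 gene IDs matched.

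No doublet caller was run, and barcodes with 2 or more TCR beta chains were left out in an alternative. Other alternatives changed the depth of cells, the UMIs required of the selecting genes, the Il10 condition, cells per clonotype, cycling cells, the cell filter, the weight of cells, the UMI minimum of genes and the definition of a clonotype. The ratios and intervals were run on simulated Poisson counts of group totals with known folds. Those counts had no spread between cells or clones. The run thus cannot show how the intervals hold where few cells carry most UMIs of a gene. Scripts ran under Python 3.11.15. Statistics came from scipy 1.17.1, tables from pandas 2.3.3, arrays from numpy 2.4.6 and plots from matplotlib 3.10.9.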

Additional observations from a re-analysis of the deposited data

Results flagged for a closer look

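For Cxcl10 and Ly6c2 the cells with both Tcf7 and Slamf6 lay on opposite sides of a ratio of 1 in different lineage classes. In cells with no Cd4 or Cd8 UMI, the ratio of Cxcl10 over cells with neither gene was 0.311 (0.154 to 0.564), from 11 UMIs in 7 cells against 372 in 54. CD4 class cells gave 3.89. CD8 class cells gave 3.35, with 46.0% of the Cxcl10 UMIs in 1 cell. For Ly6c2 the ratio was 0.290 (0.105 to 0.641) in cells with no Cd4 or Cd8 UMI, from 6 UMIs in 6 cells against 218 in 45, while CD4 class cells gave 3.43 and CD8 class cells 0.907. The difference between classes was not tested for either gene.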

How the results depend on the processing

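With groups set on cells thinned to 2000 UMIs (24 Tcf7/Slamf6 cells), these made up 2.14% of the CD4 class, 451 genes were higher and 702 lower than in cells with neither gene, 15 higher and 37 lower than in Il10-positive cells, 90.9% were in expanded clonotypes, and 4.69% of their mates were alike. With 2 or more UMIs of both genes (24 cells) the share was 1.29%, the counts were 413 and 667, 33 genes were higher than in Il10-positive cells, the cytotoxic median was -1.25 and the share of alike mates 0%. Cells of 3000 to 8000 UMIs gave a share of 5.99% and 51 genes higher than in Il10-positive cells. Against Il10-positive cells, 1 cell per clonotype gave 25 genes higher and 32 lower, and cells outside the cycle 54 and 54. A minimum of 20 UMIs gave 255 higher and 451 lower, and 370 and 263 against Il10-positive cells, while 100 UMIs gave 39, 135, 33 and 40. Higher and lower here mean a ratio of 2 or more and of 0.5 or less, as in the main setting with 102 and 270 of 7787 genes. The number of genes that met the minimum is not given for the alternatives, so their counts cannot be read as shares. Fewer genes are counted at a higher minimum. For the other alternatives the cause was not tested. By beta chain alone 87.9% were expanded. The median of stem-like and memory genes ran from 0.43 to 1.24 over all alternatives.

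Of 63 genes, 53 kept their direction in every alternative that gave a value. On thinned groups log2 ratios turned for Il17a (-0.0624), Ccl4 (1.18), Lef1 (-0.0660), Cxcr3 (-0.0624), Gata3 (0.0400), Ccl5 (0.391), Slamf7 (0.0896) and Il7r (-0.0752), and with 2 or more UMIs of both genes for Il17a (-1.34), Id3 (-0.151, from 0.126), Klf3 (-0.11), Gata3 (0.0208) and Il7r (-0.59). For Cxcl2, Il13 and Foxp3, 6 values are not given because a group had 0 UMIs. Dropping the Il10 condition could not be run against Il10-positive cells. Detection of 2 genes at 1 UMI each, 1 pooled sample of 5 mice and few cells limit each value.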
